A study of Mus musculus with 2 samples.

Results

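The genes described here are 41 genes of mitosis and the spindle checkpoint, chosen by name: mitotic kinases, checkpoint and kinetochore proteins, condensin, and genes of anaphase and cytokinesis, with kinesins left out apart from Cenpe, which encodes a kinetochore kinesin. All 41 were found among the 17216 genes of the series, and all 41 had an average of 1 FPKM or more over both libraries (FPKM counts sequenced fragments relative to the length of the transcript and the depth of the library). The RNA came from cells sorted by flow cytometry from C57BL/6 mice as LT-HSCs (long-term haematopoietic stem cells), which maintain blood formation for life. The gate took cells negative for lineage markers and CD48 and positive for Sca-1, c-Kit and CD150. The 2 groups were mice without the tubulin-modifying enzyme CCP3 (genotype Ccp3-/-) and their wild type littermates, with 1 library each. Strain and genotype are given per library, while age, sex, the number of animals behind a library and the deleted part of the gene are not stated in the labels.

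A dividing cell enters mitosis when cyclin-dependent kinase 1, bound to cyclin A or B, becomes active. Condensin then compacts the chromosomes, kinetochores attach them to spindle microtubules, and the spindle checkpoint holds back the anaphase-promoting complex until every kinetochore is attached. Transcripts of these genes accumulate in the later part of the cell cycle and are low in resting cells, so they are widely used as markers of proliferation. Most LT-HSCs of an adult mouse are known to rest outside the cell cycle.

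Values are given in the order wild type, then knockout-labelled library. Agbl3, which encodes CCP3, was listed at 1.11 and 0.66 FPKM. The ratio of knockout-labelled to wild type was 0.595, with a 95% counting interval from 0.286 to 1.19. Since that interval holds 1 and the deleted part is unknown, Agbl3 gives no check of the label, which is why the second library is called knockout-labelled. With 1 library per genotype there is no replicate spread and no test of genotype, and all comparisons are between these 2 libraries. The step between low FPKM values gave depths of about 15.3 and 14.2 M reads. Counting intervals were computed from the reads that this step implies for each gene, so they are approximate and cover counting error only. All FPKM values summed to 577420 and 506124.

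Genes of this class often carry CCAAT boxes, bound by the factor NF-Y, and the cell cycle genes homology region (CHR), bound by MuvB complexes with either repressors or activators. RefSeq promoter windows of the mouse build GRCm38.p6, from 250 bases before to 50 bases after a gene's start, were found for 34 of the 41 genes, in 36 windows. CCAAT on either strand was in 75.0% of these 36 windows, against 37.4% of all 32851 windows in the table and 38.4% of windows of genes that averaged 1 FPKM or more. The CHR letters TTTGAA, or the variant with TTCGAA, on either strand were in 77.8% of the members' windows, against 19.2% of all windows and 14.4% of windows of such genes. Both motifs together were in 69.4% of the members' windows (23 genes), against 7.52% of all windows and 6.11% of windows of genes that averaged 1 FPKM or more. E2F-like letters, searched as TTTCGCGC and also as TTTGGCGC and also as TTTCCCGC on both strands, were in 8.33% of the members' windows and 1.84% of all windows (3.58% of windows of genes that averaged 1 FPKM or more), which for the members is only 3 windows. The motifs were searched independently and may overlap one another. A match is a stretch of letters and does not show that a factor was bound in these cells.

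The stretches below are the bases before the start of the 4 most abundant members whose window held both motifs there, ending where an exon is annotated. They are shown so that the position of the motifs can be read, which for Ube2c covers CCAAT only. Capitals mark every match of either motif, on this or the other strand. Top2a is on the minus strand at chr11:99024190-99024439, Ube2c on the plus strand at chr2:164769679-164769897, Mki67 on the minus strand at chr7:135716380-135716629 and Ncapd2 on the minus strand at chr6:125191702-125191800, all in GRCm38.p6.
Top2a: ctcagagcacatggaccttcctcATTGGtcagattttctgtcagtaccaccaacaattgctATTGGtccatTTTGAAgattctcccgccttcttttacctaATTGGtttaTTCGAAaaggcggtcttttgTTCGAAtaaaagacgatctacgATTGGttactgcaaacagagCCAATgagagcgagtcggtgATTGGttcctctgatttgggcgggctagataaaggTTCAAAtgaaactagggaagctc
Ube2c: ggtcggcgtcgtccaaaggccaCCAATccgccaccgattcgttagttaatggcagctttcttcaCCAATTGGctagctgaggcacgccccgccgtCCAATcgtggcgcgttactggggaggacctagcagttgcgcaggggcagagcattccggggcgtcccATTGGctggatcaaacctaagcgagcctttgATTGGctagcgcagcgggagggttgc
Mki67: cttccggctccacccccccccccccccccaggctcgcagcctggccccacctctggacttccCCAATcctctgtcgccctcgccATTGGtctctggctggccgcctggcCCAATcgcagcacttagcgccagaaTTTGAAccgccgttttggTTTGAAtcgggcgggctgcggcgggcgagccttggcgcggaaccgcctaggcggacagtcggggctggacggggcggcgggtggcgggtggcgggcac
Ncapd2: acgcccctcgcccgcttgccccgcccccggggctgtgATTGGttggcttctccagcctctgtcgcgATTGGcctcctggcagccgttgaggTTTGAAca
The Top2a stretch held 6 CCAAT and 4 CHR matches in 250 bases, and the Mki67 stretch held 3 and 2. In Ube2c the only CHR match lay from 29 to 24 bases before the RefSeq start, in a stretch that GENCODE annotates as exon and that is not printed. Before the RefSeq start, Mki67 and Ncapd2 each held 3 CCAAT matches (1 of those of Ncapd2 in exon and not printed). They held 2 and 1 CHR matches there. Mki67 was higher in the knockout-labelled library and Ncapd2 differed little, as given below. Their transcripts also differ in length (10098 and 4527 bases), and a link between motifs and differences was not tested. The 23 genes with both motifs had a median difference of 0.08 (range −0.24 to 0.75) on the log2 scale defined below. The 11 other genes with a window had −0.12 (range −0.25 to 0.53), and the ranges overlapped over most of their length. Differences went with transcript length, as given below, and these medians were not centred on length. After centring on genes of similar length, described below, the 23 genes ran from −0.26 (Cdk1) to 0.59 (Smc2). The 11 others ran from −0.24 (Ncaph) to 0.50 (Ccnb1), and both medians then lay close together.

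Mitosis transcripts were abundant in both libraries. In the wild type library the 41 genes ranged from 8.32 FPKM (Espl1) to 163 FPKM (Top2a), with a median of 41.8 FPKM. In the knockout-labelled library they ranged from 8.89 FPKM (Cdc25c) to 191 FPKM (Top2a), with a median of 47.4 FPKM. Over all 11985 genes that averaged 1 FPKM or more, called the measured genes below, the medians were 11.6 and 11.9 FPKM. Among the genes listed in a library, members stood between percentiles 56.9 and 97.4 in the first and between 56.8 and 98.0 in the second. In all, 29 of the 41 lay above the 80th percentile in both. Top2a, Ube2c, Ube2s, Incenp and Mki67 were the 5 highest in the wild type library, and Top2a, Ube2s, Mki67, Ube2c and Smc4 in the knockout-labelled library. The order of members was nearly the same in both (Spearman 0.97 across the 41 genes, as a description).

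**Figure D1:**
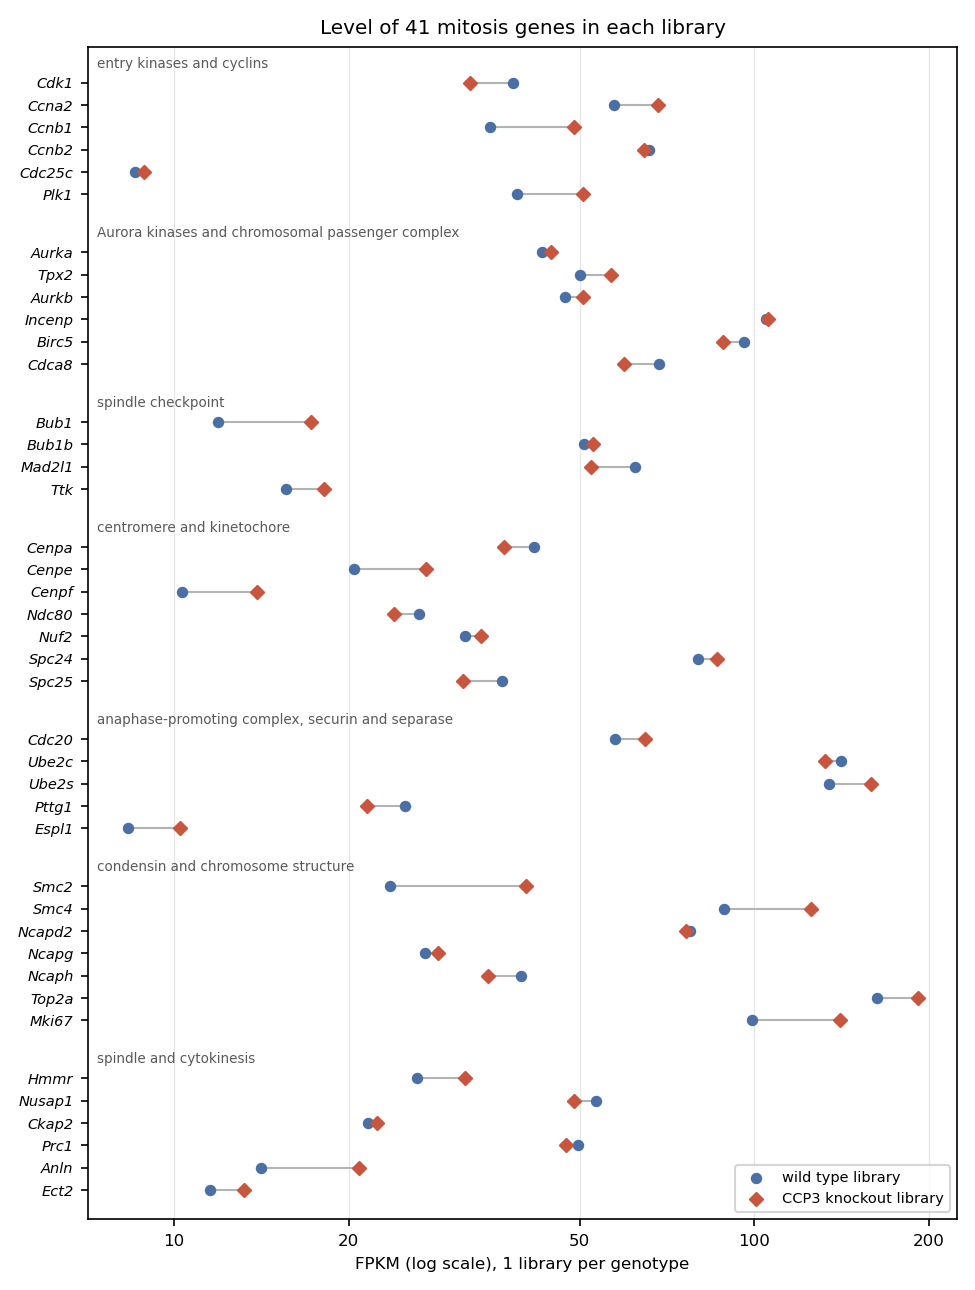
FPKM on a log axis for each of the 41 genes in the wild type library (blue circles) and the knockout-labelled library (red diamonds), grouped by role, with 1 library per genotype and no error bars. Levels run from 8.32 to 191 FPKM, and the widest gap between the symbols of a gene is that of Smc2 (23.58 and 40.42 FPKM).

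The markers of the gate did not all match the label. RNA of Cd48, the surface protein selected against, stood at 136 and 114 FPKM. RNA of Slamf1, the gene of CD150, stood at only 2.14 and 3.40 FPKM. Kit was listed at 59.7 and 56.5 FPKM and Ly6a, which encodes Sca-1, at 49.1 and 28.4 FPKM. Markers of other progenitors were present: Mpo of granulocyte and monocyte progenitors at 1842 and 2792.5 FPKM, Dntt of multipotent progenitors at 341 and 149 FPKM, and Hba-a1 of red cell precursors at 764 and 155 FPKM. Of the 10 red cell markers, 5 were lower, the globin gene Hba-a1 most (difference −2.29), and 5 were higher, by up to 0.72 on the log2 scale defined below. All 9 granulocyte and monocyte progenitor markers were higher in the knockout-labelled library, with sums of 3945 and 6523 FPKM, and none was at 0. All 9 B cell precursor markers that averaged 1 FPKM or more were lower, with sums of 133 and 58.3 FPKM over the 10 markers. HSC identity markers summed to 237 and 164 FPKM, with 10 of 13 lower. Sex-linked transcripts differed too, with Xist at 5.38 and 44.2 FPKM and Eif2s3y at 44.6 and 11.5 FPKM. With 1 library each, sex, cell makeup and genotype cannot be told apart, and the part of these differences in the mitosis genes was not tested. Nor can more dividing cells be told apart from more mitotic RNA per cell in bulk RNA.

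Most mitosis genes were at similar levels in the 2 libraries, and none was as much as 20% lower in the knockout-labelled library. Differences are log2(FPKM + 1) in the knockout-labelled minus the wild type library, while ratios are of FPKM itself. The median difference of the 41 genes was 0.08, against 0.01 over the 11985 measured genes. Only Smc2 was higher by 1.5-fold or more, where 6.11% of measured genes were, and 0 members were lower by that fold, where 6.13% were. A smaller rule of size, applied like the first to FPKM + 1, asked for a value at least 25% higher or, the same fold downward, at least 20% lower. By that rule 9 members were higher (17.9% of measured genes) and 0 were lower (17.1% of measured genes). The 9 were Smc2, Anln, Bub1, Smc4, Mki67, Ccnb1, Cenpe, Cenpf and Plk1. The remaining 32 lay within those bounds. Of the 41 differences, 27 were above 0, as were 50.8% over all genes. The sign of small differences rests on the scaling: with both libraries scaled to the same FPKM sum, which moved the median of all genes to 0.18, 35 were above 0 and the median was 0.27. With both scaled to the same upper quartile, where the median of all genes was −0.04, 22 were above 0 and the median was 0.03.

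Counting error was small beside many of these differences. The interval of the ratio lay above 1 for 19 members (31.2% of all genes) and below 1 for 8 (27.0% of all genes), and held 1 for 14. The 8 were Birc5, Cdca8, Cdk1, Cenpa, Mad2l1, Ncaph, Nusap1 and Spc25. Their ratios lay between 0.839 and 0.919, so each was lower by less than 20%. These intervals take the scaling of FPKM as given and depend on it. With the median gene set to a ratio of 1, 19 intervals lay above 1 and 10 below. Scaled to the same FPKM sum, Birc5, Cenpa and Nusap1 had differences above 0. Under that scaling the lowest of the 8 were Cdk1 and Mad2l1, each at −0.06. Summed FPKM over the 41 genes was 2103 and 2283, a ratio of 1.09. That was 0.364% and 0.451% of all FPKM in the 2 libraries.

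**Figure D2:**
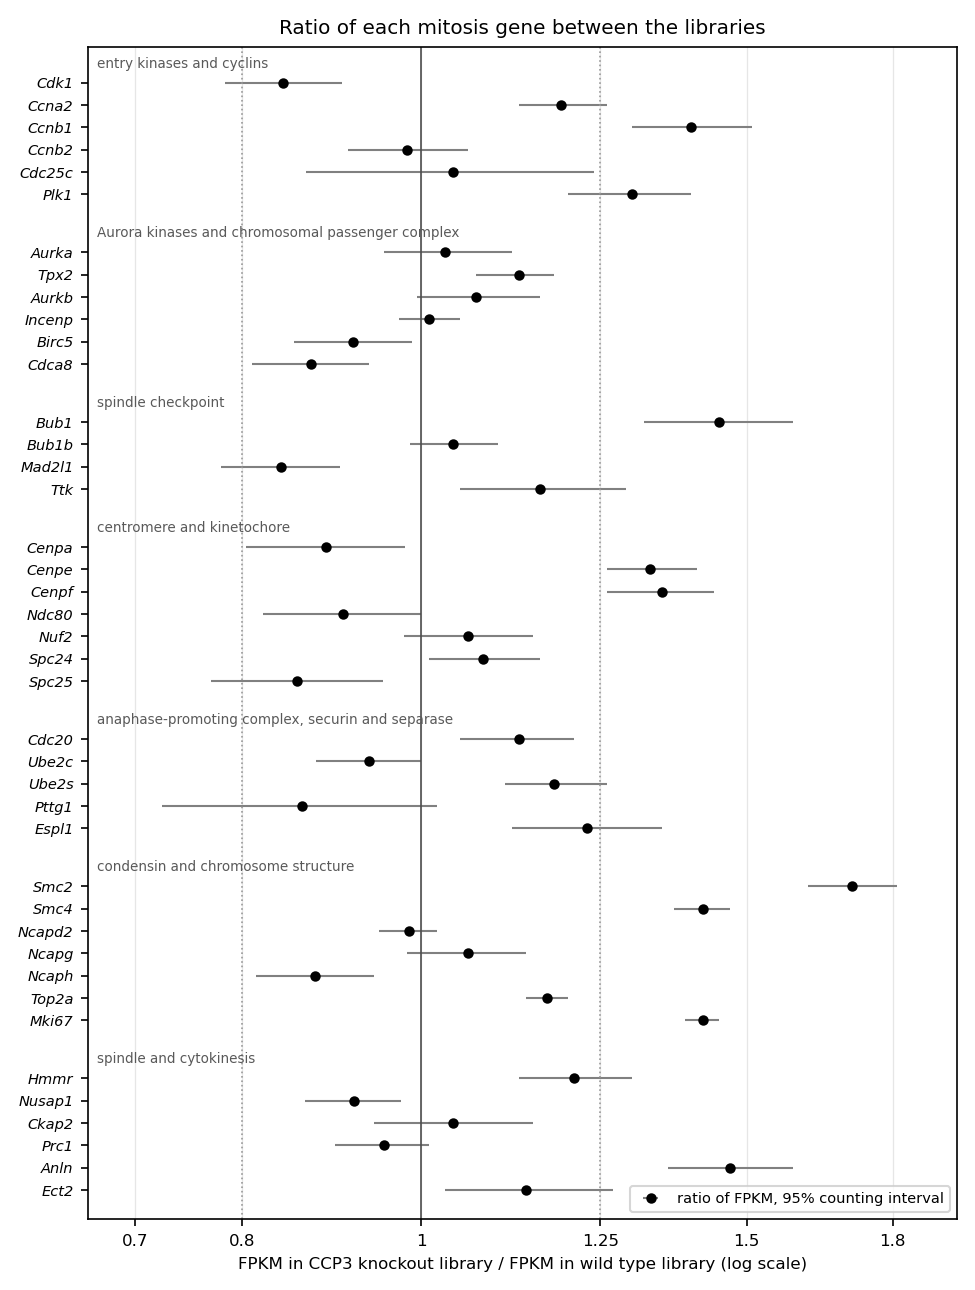
Ratio of FPKM in the knockout-labelled library to FPKM in the wild type library on a log axis, with bars for the 95% counting interval, which holds no variation between animals or libraries. Dotted lines mark a level 25% higher and one 20% lower: 9 genes lie beyond the upper line on the log2(FPKM + 1) scale, Smc2 farthest at a ratio of 1.71, and none beyond the lower.

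Among the kinases and cyclins of mitotic entry, the cyclin genes Ccna2 and Ccnb1 went the opposite way to Cdk1, while Ccnb2 differed little. Cdk1, the kinase that drives entry, was listed at 38.44 and 32.38 FPKM. Ccnb1, the main B-type cyclin, was listed at 35.00 and 48.88 FPKM. Cdk1 was thus lower and Ccnb1 higher in the knockout-labelled library than in the wild type library. The ratios were 0.842 (0.783 to 0.906) and 1.40 (1.30 to 1.51). With equal FPKM sums the differences of Cdk1 and Ccnb1 were −0.06 and 0.66. The other B-type cyclin gene, Ccnb2, stood at 65.81 and 64.65 FPKM, a ratio of 0.982 (0.913 to 1.06). Within a library, the Ccnb1 level was 0.532 and 0.756 of the Ccnb2 level. Pseudogene copies of both cyclin B genes are annotated but were not in the files, so reads of such copies may have been counted with either gene. Ccna2, cyclin A, was listed at 57.40 and 68.25 FPKM (1.19, 1.13 to 1.26). Plk1, polo-like kinase, which activates cyclin B kinase and later acts on kinetochores and cytokinesis, was listed at 39.07 and 50.62 FPKM (1.30, 1.20 to 1.40). Cdc25c, a phosphatase that removes inhibitory phosphates from Cdk1, was among the least abundant members at 8.56 and 8.89 FPKM. The median of the 6 genes was 0.15.

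Aurora kinase and chromosomal passenger genes had the narrowest range of differences of the 7 roles (−0.20 to 0.17). The passenger complex holds Aurora B with Incenp, survivin (Birc5) and borealin (Cdca8), and corrects faulty attachments of chromosomes. Incenp stood at 104.58 and 105.74 FPKM and Aurkb at 47.22 and 50.64 FPKM. Birc5 was listed at 96.07 and 88.23 FPKM and Cdca8 at 68.49 and 59.69 FPKM. The last pair was slightly lower in the knockout-labelled library, with ratios of 0.918 (0.853 to 0.989) and 0.872 (0.810 to 0.937). This rests on scaling and length: with equal FPKM sums the differences of Birc5 and Cdca8 were 0.07 and −0.01. After centring on genes of similar length, described below, they were 0.12 and −0.06. Aurka, the kinase of spindle poles, stood at 43.12 and 44.60 FPKM, and its activator Tpx2 at 50.16 and 56.54 FPKM. None of the 6 genes was 25% higher or 20% lower, and their median difference was 0.03.

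Spindle checkpoint genes went both ways between the libraries. Mad2l1, whose protein is built into the inhibitor of the anaphase-promoting complex, was listed at 62.31 and 52.27 FPKM. Bub1, a kinase that recruits other checkpoint proteins to kinetochores, was listed at 11.89 and 17.22 FPKM. Mad2l1 was lower in the knockout-labelled library (ratio 0.839, 0.779 to 0.904) and Bub1 higher (1.45, 1.32 to 1.59). Bub1b, which encodes the inhibitor subunit BubR1, stood at 50.77 and 52.80 FPKM and differed by less than its counting interval. Ttk, the kinase that starts checkpoint signalling, was listed at 15.59 and 18.15 FPKM (1.16, 1.05 to 1.29). The Bub1b level was 4.27 and 3.07 times that of Bub1.

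Of the 7 centromere and kinetochore genes, only Cenpe and Cenpf were at least 25% higher, and 0 were at least 20% lower. Cenpe, a motor that helps chromosomes reach the spindle equator, was listed at 20.42 and 27.23 FPKM, and Cenpf, a large outer kinetochore protein, at 10.32 and 13.90 FPKM. Both were higher in the knockout-labelled library, with ratios of 1.33 (1.26 to 1.41) and 1.35 (1.26 to 1.44), and both have long transcripts of 7813 and 11130 bases. The 4 subunits of the Ndc80 complex, which binds microtubules, stayed within the smaller rule of size. Ndc80 stood at 26.42 and 23.95 FPKM and Nuf2 at 31.77 and 33.75 FPKM. Spc24 stood at 79.82 and 86.35 FPKM and Spc25 at 36.75 and 31.47 FPKM. Spc24 thus exceeded its 3 partners in both libraries, at 3.02 and 3.61 times the Ndc80 level. Cenpa, the histone variant that marks centromeres, was listed at 41.75 and 37.06 FPKM (0.888, 0.804 to 0.980).

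Genes of the anaphase-promoting complex and chromosome separation held some of the most abundant members. The enzymes that attach ubiquitin for the complex, Ube2c and Ube2s, were listed at 141.24 and 132.28 FPKM and at 134.61 and 159.12 FPKM, respectively. Ube2c was the higher of the pair in the wild type library and Ube2s in the knockout-labelled library. The Ube2s ratio was 1.18 (1.11 to 1.26), although its transcript is only 988 bases long. Cdc20, the activator that the checkpoint holds back, was listed at 57.63 and 64.84 FPKM (1.13, 1.05 to 1.21). Securin, Pttg1, stood at 25.00 and 21.54 FPKM, and its interval held 1. Separase, Espl1, the protease that cuts cohesin and that securin restrains, was listed at 8.32 and 10.23 FPKM (1.23, 1.12 to 1.35). Their transcripts differ much in length, 823 bases for Pttg1 and 6630 for Espl1. After centring on genes of similar length, described below, their differences of −0.21 and 0.27 were 0.08 and 0.01.

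Condensin subunits parted into those that were higher and those that were not. Condensin I is built from the ring proteins Smc2 and Smc4 and from 3 further subunits encoded by Ncapd2, Ncapg and Ncaph. Smc2 was listed at 23.58 and 40.42 FPKM and Smc4 at 88.54 and 125.41 FPKM. Both ring genes were higher in the knockout-labelled library, with ratios of 1.71 (1.62 to 1.81) and 1.42 (1.37 to 1.47). Ncapd2 was listed at 77.46 and 76.33 FPKM, Ncapg at 27.02 and 28.53 FPKM and Ncaph at 39.62 and 34.72 FPKM. None of these 3 was 25% higher or 20% lower, and their ratios were 0.985 (0.948 to 1.02), 1.06 (0.982 to 1.14) and 0.876 (0.814 to 0.943). The Smc2 level was 0.595 and 1.16 times the Ncaph level, so their order was reversed between the libraries. Smc4 and Ncapd2 have transcripts of similar length (4101 and 4527 bases), and the ratio of their levels was 1.14 and 1.64. The condensin II subunits were as uneven, with Ncapg2 at 9.64 and 15.6 FPKM, Ncapd3 at 19.5 and 19.9 FPKM and Ncaph2 at 55.0 and 43.9 FPKM.

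The proliferation markers Mki67 and Top2a were both higher in the knockout-labelled library. Mki67 encodes Ki-67, which coats mitotic chromosomes and keeps them apart, and was listed at 98.89 and 140.27 FPKM. Top2a, the enzyme that untangles sister chromatids, was listed at 162.87 and 190.99 FPKM. The ratios were 1.42 (1.39 to 1.45) and 1.17 (1.14 to 1.20), from about 15236 and 12920 reads in the wild type library. Both transcripts are long, and the differences of 0.50 and 0.23 were 0.17 and 0.08 after centring on genes of similar length, described below, so that Mki67 no longer passed the smaller rule.

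In the spindle and cytokinesis group, Anln differed most. It encodes anillin, a scaffold of the contractile ring, and was listed at 14.14 and 20.80 FPKM (1.47, 1.36 to 1.59). Ect2, which activates RhoA at the cell equator, was listed at 11.56 and 13.21 FPKM (1.14, 1.03 to 1.27), and the spindle gene Hmmr at 26.21 and 31.78 FPKM (1.21, 1.13 to 1.30). These 3 were higher in the knockout-labelled library, and only Anln by 25% or more. Prc1, which bundles microtubules of the central spindle, stood at 49.69 and 47.43 FPKM, Nusap1 at 53.30 and 48.96 FPKM and Ckap2 at 21.56 and 22.40 FPKM. Of these, the interval of Nusap1 alone left out 1 (0.919, 0.865 to 0.975).

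Across members, the difference went with transcript length, as it did over all genes. Against log2 length, Pearson's coefficient was 0.62 over the 41 genes, and Spearman's coefficient was 0.63. Over all 11985 genes they were 0.34 and 0.43. These are descriptions across genes that share the same 2 libraries. The 14 members under 2000 bases had a median difference of −0.06 (range −0.25 to 0.24), and the 12 members of 4000 bases or more had 0.40 (range −0.02 to 0.75). All genes in the same length classes had medians of −0.18 and 0.20. Of the 9 members at least 25% higher, 7 had transcripts of 4000 bases or more. They were 7 of 12 members of that length, where 34.2% of measured genes of that length passed the same rule. Ncapd2 was the only 1 of the 12 below 0. Of the 8 members whose interval lay below 1, 5 were under 2000 bases.

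**Figure D3:**
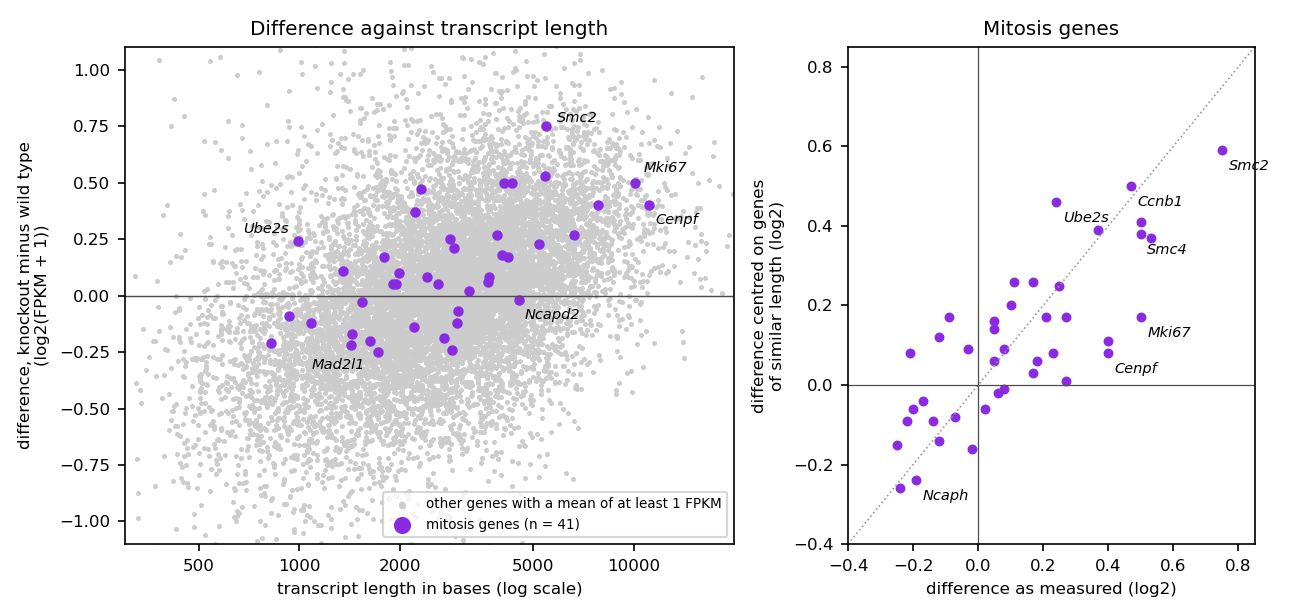
Left, difference in log2(FPKM + 1), knockout-labelled minus wild type, against transcript length on a log axis for the 41 genes (purple) and other measured genes (grey, drawn only inside the axis limits); members under 2000 bases have a median of −0.06 and those of 4000 bases or more 0.40. Right, the same difference against its value centred on genes of similar length, where the dotted line marks equal values: Smc2 stays highest at 0.59, while Mki67 and Cenpf fall below the line.

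To set length aside, each difference was centred by subtracting the median over 200 genes of the closest transcript length that were not members. The median of the 41 genes was then 0.09, against 0.00 over all measured genes. After centring, 7 members were at least 25% higher (14.7% of measured genes) and 0 at least 20% lower (14.4% of measured genes). These 7 were Smc2 (0.59), Ccnb1 (0.50), Ube2s (0.46), Bub1 (0.41), Plk1 (0.39), Smc4 (0.38) and Anln (0.37). Of the 9 genes that passed before centring, 6 remained, and Ube2s was added. Mki67, Cenpe and Cenpf did not remain, with centred differences of 0.17, 0.11 and 0.08. Top2a was at 0.08. Among the lower genes, Cdk1 (−0.26), Ncaph (−0.24), Ncapd2 (−0.16), Mad2l1 (−0.15) and Nusap1 (−0.14) were the lowest after centring.

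Other mitosis genes were described by 9 further lists holding 135 genes, 134 of them averaging 1 FPKM or more. Their median difference was 0.07, or 0.02 after length centring, with 18 at least 25% higher and 12 at least 20% lower. Over all measured genes the shares were 17.9% and 17.1%, against which the counts of the lists below are also to be read. By the same rule, 1 of 31 other kinetochore and centromere genes was higher and 5 were lower, and their median was 0.01. Knl1, the platform that recruits Bub1, was listed at 7.66 and 13.3 FPKM, and Cenpx, a small centromere and DNA repair protein, at 108 and 63.8 FPKM. Of 13 mitotic kinesins, 4 were higher and 0 lower, among them Kif14 (5.31 and 8.01 FPKM), Kif15 (25.8 and 37.1 FPKM) and Kif20b (22.3 and 29.6 FPKM). Their median was 0.08, or 0.02 after length centring, when only 1 of the 13 passed, Kif15 (0.36). Of 15 genes of cohesin, the ring that holds sister chromatids together, 5 were higher and 1 lower, with a median of 0.28 that was 0.03 after length centring. Wapl, which releases cohesin, was listed at 16.3 and 27.1 FPKM, and Pds5a at 44.9 and 72.6 FPKM. Among 16 further anaphase-promoting complex genes, 1 was higher and 3 lower, with a median of −0.11, from Anapc13 at 187 and 122 FPKM to Cdc27 at 12.3 and 19.1 FPKM. Of 23 centrosome and spindle pole genes, 3 were higher and 1 lower, with Plk4, the kinase of centriole duplication, at 13.3 and 20.7 FPKM. Of 10 other cytokinesis genes, 2 were higher and 0 lower, among them Arhgap11a, a regulator of RhoA, at 27.96 and 38.54 FPKM. After length centring 0 of the 10 passed, and Arhgap11a was at 0.28. Of 16 other kinases and phosphatases of entry and exit, 1 was higher (Cdc25a, 24.2 and 33.2 FPKM) and 1 lower (Pbk, 38.05 and 27.13 FPKM). Of 7 other spindle checkpoint genes, 0 were higher and 1 was lower (Mad2l1bp, 7.52 and 5.17 FPKM), and of the 3 condensin II genes given above only Ncapg2 passed. Ncaph2, at a ratio of 0.797 (0.753 to 0.845), was just outside the rule, which is applied on the log2(FPKM + 1) scale.

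The lists around mitosis were as mixed. Of 18 genes for the transcription of mitotic genes, 5 were at least 25% higher and 1 at least 20% lower, with a median of −0.01. They include E2f8, a repressor of the E2F family (36.9 and 55.7 FPKM), and the MuvB subunit genes Lin54 (6.87 and 10.5 FPKM) and Lin37 (45.0 and 31.4 FPKM). The CHR-binding subunit Lin54 was thus higher and Lin37 lower in the knockout-labelled library. Their transcripts differ in length (4487 and 1003 bases). After length centring the differences were 0.39 and −0.29, and Lin37 no longer passed the rule. Of 36 DNA replication genes, 3 were higher and 1 lower by this rule, and the median was 0.01. The ribonucleotide reductase gene Rrm2 was listed at 54.9 and 78.3 FPKM and thymidine kinase Tk1 at 42.7 and 29.6 FPKM. Summed FPKM of the 41 mitosis genes was 0.939 and 1.05 times that of the replication genes. These sums were not centred on length, and the median transcript was 2827 bases in the mitosis genes and 2363 in the replication genes. Of 14 genes for G1 cyclins and inhibitors, 5 were higher and 0 lower, but the median was −0.02, with 7 above 0 and 7 below. The 5 were led by Cdk6 (35.5 and 57.8 FPKM), Ccnd2 (26.3 and 37.2 FPKM) and Cdkn2c (15.1 and 20.9 FPKM). After length centring 2 of the 14 were higher by this rule and 0 lower, with a median of 0.13. Ccnd2, at 0.28, no longer passed.

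**Figure D4:**
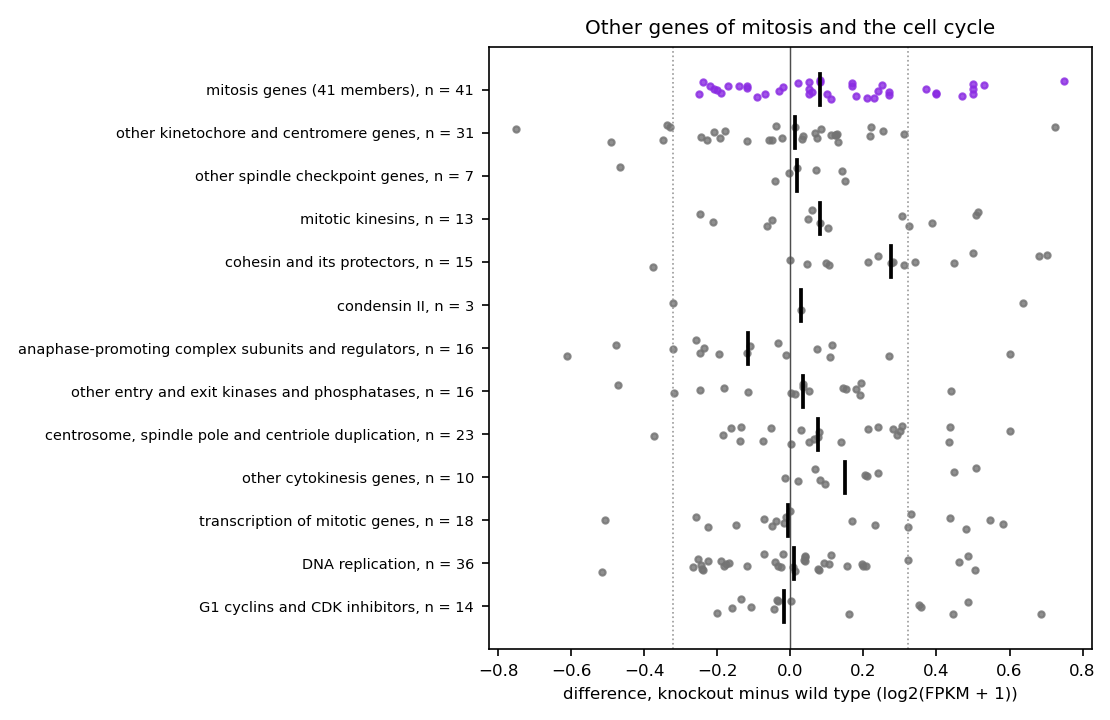
Difference in log2(FPKM + 1), knockout-labelled minus wild type, for each of the 41 genes (purple) and each gene of 12 other lists (grey), with a black bar at the median of the list and dotted lines at 25% higher and 20% lower. The medians run from −0.11 for anaphase-promoting complex genes to 0.28 for cohesin genes, and each list has genes on both sides of 0.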

How the data were processed

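RNA was sequenced on a BGISEQ-500 instrument, per the series' design text, with 1 library per genotype. Per the file headers, the deposited files pair Entrez identifiers and RefSeq transcripts with a length and FPKM. The authors computed FPKM. The submitters' processing notes name RSEM, HISAT, HISAT2 and the build mm9, while versions, settings and strandedness are not given in the sources. Symbols came from RefSeq GRCm38.p6 (17169 of 17216 identifiers matched). A gene missing from a file was set to 0. No member was.

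The members, lists and measures were chosen with earlier results of these data known. Named genes were all members, up to 3 genes of each other list of largest absolute difference among those averaging 5 FPKM or more, the 4 gate genes, up to 2 abundant genes of each marker list, and Agbl3. Xist, Eif2s3y, Ncapd3 and the SMC family were added after values were seen. Foxm1, Mybl2 and Fzr1 were likewise named outside this rule. Not every gene that the rule names is printed. Marker lists not described above summed, in wild type and knockout-labelled library, to 1088 and 716 FPKM (multipotent progenitor), 1426 and 464 FPKM (erythroid, most of it Hba-a1 and Hbb-bs, with 5 of 10 markers higher and 5 lower), 57.1 and 43.0 FPKM (T cell), 542 and 318 FPKM (dendritic cell) and 44.3 and 42.8 FPKM (megakaryocyte).

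Reads were estimated from low FPKM values of short genes with 1 transcript: the product of FPKM and length (less 37 and 36 bases) clustered at whole multiples of 65.3 and 70.6. The 458 and 424 values used came within 0.15 of a whole read in 86.5% and 88.2% of cases, and step and offset were fitted to those values. Ratio intervals are exact conditional (Clopper-Pearson) intervals at 95%. The procedure was run on simulated counts that held counting error only, so that run does not cover reads shared between transcripts or genes. Of the members, 7 overlap another protein-coding gene, with which reads could be shared: Ccna2, Aurka, Cdc20, Ncapg, Nusap1, Prc1 and Anln. For Anln the overlapping gene 9530077C05Rik was at 0.70 and 0.82 FPKM. The other partners were more abundant. Exosc9 (Ccna2) was at 41.84 and 44.62 FPKM, Cstf1 (Aurka) at 27.04 and 27.55 FPKM and Elovl1 (Cdc20) at 28.92 and 24.37 FPKM. Rccd1 (Prc1) was at 10.87 and 8.80 FPKM, Oip5 (Nusap1) at 6.12 and 5.55 FPKM and Lcorl (Ncapg) at 3.77 and 5.25 FPKM. Alternatives covered pseudocount, filter, scaling and length centring. The tools were pandas 2.3.3, numpy 2.4.6, matplotlib 3.10.9 and scipy 1.17.1 under Python 3.11.15.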

Additional observations from a re-analysis of the deposited data

How the results depend on the processing

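No paired analysis was possible because each genotype has 1 library, so no library could be left out either. The median of the 41 genes (0.08) moved to 0.27 with equal FPKM sums and to 0.03 with equal upper quartiles, and the mean was 0.12. It lay between 0.08 and 0.09 under both other pseudocounts, both other filters and length centring. With equal sums, 6 members were higher by 1.5-fold and 18 by 25% or more, against 12.2% and 33.1% of all genes. Under the other settings 1 member (2.35% to 8.29% of all genes) and 7 to 9 members (10.4% to 20.7% of all genes) were. By the 1.5-fold rule and by the smaller rule, 0 members were lower under every setting run. With equal sums, 3.2% and 9.08% of all genes were lower by these rules, so few lower genes were found under that setting at all. Under the other settings 2.69% to 8.39% and 10.4% to 20.9% of all genes were lower. With equal sums, role medians were 0.33 (entry), 0.22 (Aurora and passenger), 0.31 (checkpoint), 0.27 (kinetochore), 0.35 (anaphase), 0.42 (condensin and chromosome structure) and 0.29 (spindle and cytokinesis). With length centring the role medians went from 0.15 to 0.20 (entry), 0.03 to 0.07 (Aurora and passenger), 0.13 to 0.08 (checkpoint), 0.23 to 0.08 (condensin and chromosome structure) and 0.12 to 0.06 (spindle and cytokinesis), and stayed at 0.08 (kinetochore) and 0.17 (anaphase). The cause was not tested beyond the construction of each scaling. Of the 41 single differences, 8 changed sign with equal sums, 5 with equal upper quartiles and 7 with length centring. Smc2 stayed at least 1.5-fold higher under all 3 (0.94, 0.70 and 0.59). Counting depth limited most the members with the fewest reads in the wild type library, Cdc25c (about 250) and Pttg1 (about 301, with an interval from 0.724 to 1.02).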

Other observations

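The SMC family, to which the condensin ring genes belong, was looked at after the values of Smc2 and Smc4 were seen. SMC proteins form ring-shaped ATPases in 3 complexes: condensin, cohesin and the Smc5 and Smc6 complex of DNA repair. In the order wild type, then knockout-labelled library, Smc6 was listed at 20.7 and 30.3 FPKM (ratio 1.46, 1.38 to 1.56), and its partner Smc5 at 16.4 and 21.9 FPKM (1.33, 1.24 to 1.43). The cohesin ring gene Smc3 stood at 65.5 and 81.4 FPKM (1.24, 1.20 to 1.29) and Smc1a at 148 and 152 FPKM (1.03, 1.0 to 1.06). Smchd1, a related protein that helps silence the inactive X, was listed at 22.7 and 31.8 FPKM (1.40, 1.32 to 1.47), beside Xist at 5.38 and 44.2 FPKM. After length centring the differences were 0.32 for Smc6, 0.19 for Smc5, 0.18 for Smchd1, 0.16 for Smc3 and −0.04 for Smc1a, against 0.59 for Smc2 and 0.38 for Smc4. Smc2 thus had the largest centred difference of these 7 genes, and Smc1a the smallest. The meiotic gene Smc1b was listed at 0.05 and 0.14 FPKM, too few reads for a comparison.

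The 2 regulators of mitotic transcription best known for activating these promoters were also chosen after values were seen. Foxm1 stood at 22.4 and 22.3 FPKM (0.992, 0.921 to 1.07) and Mybl2 at 23.1 and 31.6 FPKM (1.37, 1.27 to 1.47). Mybl2 remained higher after length centring (0.38), while Foxm1 was at −0.09. The ubiquitin ligase activator Fzr1, which acts after Cdc20 at mitotic exit, was listed at 25.0 and 21.7 FPKM (0.868, 0.783 to 0.961). With FPKM as listed, Fzr1 was thus opposite in direction to Cdc20. The direction of Fzr1 rests on scaling. Its difference was −0.20, and equal FPKM sums moved the median of all genes to 0.18.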
